A study of Mus musculus with 32 samples.

Results

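The comparison described here is that of the amygdala of double-mutant (DM) mice with the amygdala of wild-type (WT) mice. Its members were the 4 DM and 4 WT amygdala libraries, 8 of the 32 libraries of the series, and all 53715 genes of the amygdala table, with the ERCC spike-in rows left out. All mice were adult F1 males labelled 129xB6, from 129S1/SvImJ *Kmt2a* +/- fathers and C57BL/6J mothers heterozygous for *Kdm5c*. DM mice carried both lesions, *Kmt2a* +/- and *Kdm5c* -/y, and WT mice carried neither. The *Kmt2a* allele derives from a floxed pair of exons crossed to a ROSA26 Cre-ERT2 line. Neither mutation was restricted to a cell type of the brain, so that effects within the amygdala and effects from elsewhere or from development cannot be told apart. The other 2 genotypes, *Kmt2a*-HET (*Kmt2a* +/-) and *Kdm5c*-KO (*Kdm5c* -/y), and the hippocampus of the same mice were used for comparison, and the amygdala libraries of all 4 genotypes entered the fit that estimated the spread. Polyadenylated RNA of microdissected tissue was sequenced.

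KMT2A and KDM5C act on the same residue, lysine 4 of histone H3 (H3K4), in opposite directions. KMT2A adds methyl groups and KDM5C, which is encoded on the X chromosome, removes them, and methylated H3K4 marks active promoters and enhancers. KDM5C is also known for helping to keep germline genes silent in the brain, and PRC1.6 complexes, whose subunits recognise E-box and E2F motifs, silence genes of the same class. The amygdala processes fear, threat and social cues. The question put to the comparison was which transcripts remain different from WT when both the writer and the eraser are lost or reduced.

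Counts assigned to genes ranged from 20599375 to 25217173 over the 8 libraries, and 21731 to 23216 genes had a count. Spike-in RNA took 0.120 to 0.511% of the counts. Neither targeted gene was called at the level of the whole gene, which counts reads outside the deleted exons and so does not check the alleles. *Kdm5c* (ENSMUSG00000025332.14, chromosome X) had 1227, 1564, 1664 and 2026 normalised reads in WT libraries 1 to 4 and 1283, 1356, 1271 and 1225 in DM libraries 1 to 4. The DM values were below WT libraries 2 to 4 and around that of WT library 1, with means of 1620 ± 329 and 1284 ± 54.0 (SD, n = 4) and a log2 fold change of -0.34 ± 0.12 (SE, DESeq2 adjusted p = 0.325). *Kmt2a* (ENSMUSG00000002028.13, chromosome 9) had 4203 ± 1491 reads in WT and 4173 ± 975 in DM (SD, n = 4), and library 1 was the lowest of both groups, at 2163 and 3008. Libraries differed in ways that genotype does not define. WT library 1 had the lowest sums of oligodendrocyte markers (2517 CPM, counts scaled to each library's total, against 4818 to 6184 in the other WT libraries) and of striatal markers (876.7 against 2100 to 4079). It had the highest sums of basolateral amygdala markers (2207 against 783 to 1286) and ribosomal protein genes (22073 against 13690 to 14737). Library 1 also had the highest ribosomal protein sum of its group in DM (18188 CPM), *Kdm5c*-KO (20494) and *Kmt2a*-HET (17965). DM libraries 1 and 3 held 2332 and 497.3 CPM of choroid plexus markers, against 140.4 to 183 in WT and 188.2 and 195.4 in DM libraries 2 and 4. Without WT library 1, 226 genes were called in DM against WT (192 higher and 34 lower) in place of 211 (196 and 15), and 33 of the 38 named genes called stayed called. Main results are also given without DM libraries 1 and 3.

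DM amygdala differed from WT in 211 of 21314 genes tested, 0.990% of them (DESeq2, adjusted p under 0.1). Of these, 196 were higher in DM (0.920% of genes tested) and 15 were lower (0.0704%). The median log2 fold change was 1.13 among the genes called higher and -0.85 among those called lower, and 117 of the 196 reached a log2 fold change of 1. In 162 of the 196 the lowest DM library lay above the highest WT library, an order found in 2.17% of all genes tested, and in 13 of the 15 the highest DM library lay below the lowest WT library (1.14% of genes tested). Genes called higher had low levels in WT. Their median was 55.5 normalised reads in WT libraries, against 187 for all genes tested and 214.7 for genes called lower. Protein-coding genes made up 187 of the 211 called genes (88.6%, against 76.7% of genes tested), with 9 lincRNAs and 7 antisense RNAs. edgeR called 89 genes, 87 higher and 2 lower, all of them among the 211. With size factors from the ERCC spike-ins 7 genes were called, all of them higher, and the median log2 fold change of all genes tested was -0.21 in place of -0.01. With the replicate block 601 genes were called, 416 higher and 185 lower.

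**Figure D1:**
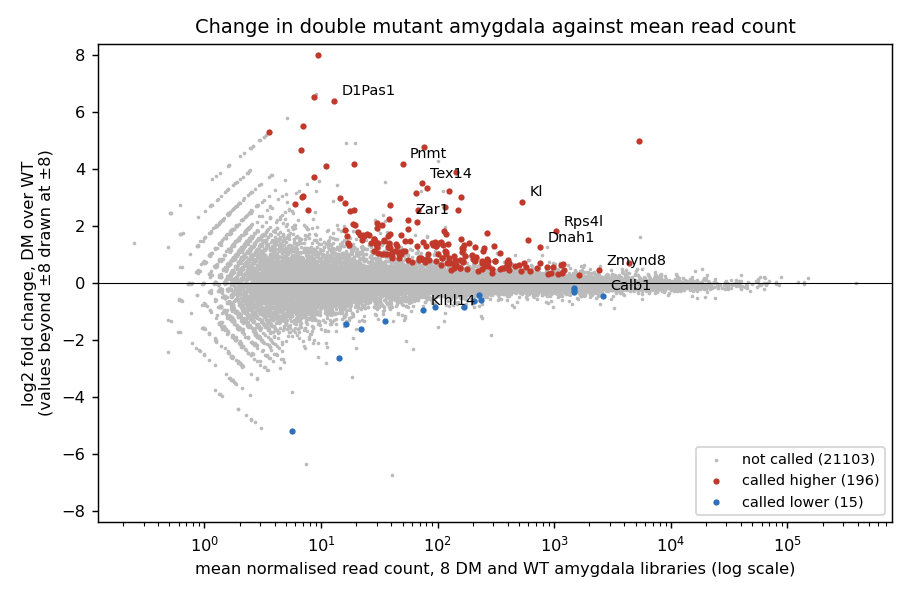
Log2 fold change of DM over WT in the amygdala (vertical axis) against the mean normalised read count of the 8 libraries (horizontal axis, log scale) for the 21314 genes tested, with the 196 genes called higher in red and the 15 called lower in blue. Red points outnumber blue ones and most lie at low to middle read counts, and 1 gene beyond the axis range is drawn at its edge.

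*Tex14*, a germline gene, had the smallest adjusted p of all genes. Of 51 genes on a list of germline and meiosis genes, 33 were tested, and 6 rose in DM and 0 fell, where 0.920% of all genes tested were called higher. The 6 were *Tex14*, *Zar1*, *D1Pas1*, *Cyct*, *Rnf17* and *Sycp3*, and edgeR called all of them except *Sycp3*. The 27 other tested members had log2 fold changes from -2.65 to 2.06 and adjusted p of 0.376 or more (DESeq2). The median over the 33 was 0.32, beside -0.01 over all genes tested. Without DM libraries 1 and 3, *Tex14*, *D1Pas1*, *Cyct* and *Zar1* were called and the median was 0.13. *Ddx4*, an RNA helicase of germ cells, had 33.4 to 112.7 reads in WT and 61.1 to 86.6 in DM, and *Dazl*, an RNA-binding protein of germ cells, had 23.3 to 60.2 and 39.8 to 64.7. *Stra8*, the gatekeeper of meiosis, as well as *Zp3*, *Figla*, *Pgk2*, *Dpep3* and *Tex101*, had 0 counts in all 8 libraries, which allows a level of up to 0.119 to 0.146 CPM per library (3 counts, counting error only). The summed level of the list was 64.3 to 79.1 CPM in WT and 74.7 to 88.6 CPM in DM, and these ranges overlap.

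*Tex14* encodes a protein of the intercellular bridges that join dividing germ cells. It had 7.91, 10.7, 17.3 and 12.4 normalised reads in WT libraries 1 to 4 and 119, 137, 125 and 162 in DM libraries 1 to 4. Each DM library was far above every WT library, with means of 12.1 ± 3.92 and 136 ± 18.7 (SD, n = 4), a log2 fold change of 3.50 ± 0.32 (SE) and a DESeq2 adjusted p of 2.64e-24. *Zar1*, a maternal-effect gene of the oocyte, had 9.89, 22.3, 32.3 and 14.3 reads in WT and 122, 68.3, 81.6 and 94.8 in DM. The groups did not overlap, and the log2 fold change was 2.23 ± 0.30 (DESeq2 adjusted p = 1.11e-09). *D1Pas1*, a helicase gene of spermatogenic cells that resembles *Ddx3x* closely enough for reads to be shared, was close to absent in WT, where 3 libraries had no read and library 4 had 0.96, while DM libraries had 43.3, 18.2, 16.9 and 24.8. The 4 WT libraries held 1 count in all and the 4 DM libraries 104, a ratio of 103 with a 95% counting interval of 18.1 to 4113, which covers counting error only. *Cyct*, the testis cytochrome c, had 2 counts in WT and 52 in DM, a ratio of 25.8 (interval 6.79 to 219). *Rnf17*, a component of germ cell granules, had a mean of 10.2 ± 4.21 reads in WT and 32.8 ± 11.3 in DM, and *Sycp3*, a protein of the synaptonemal complex, had 14.2 ± 6.34 and 42.2 ± 14.3 (SD, n = 4). For both genes the DM libraries lay above all WT libraries, with edgeR adjusted p of 0.0806 and 0.139. The plot of single libraries shows these distances for the named genes.

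**Figure D2:**
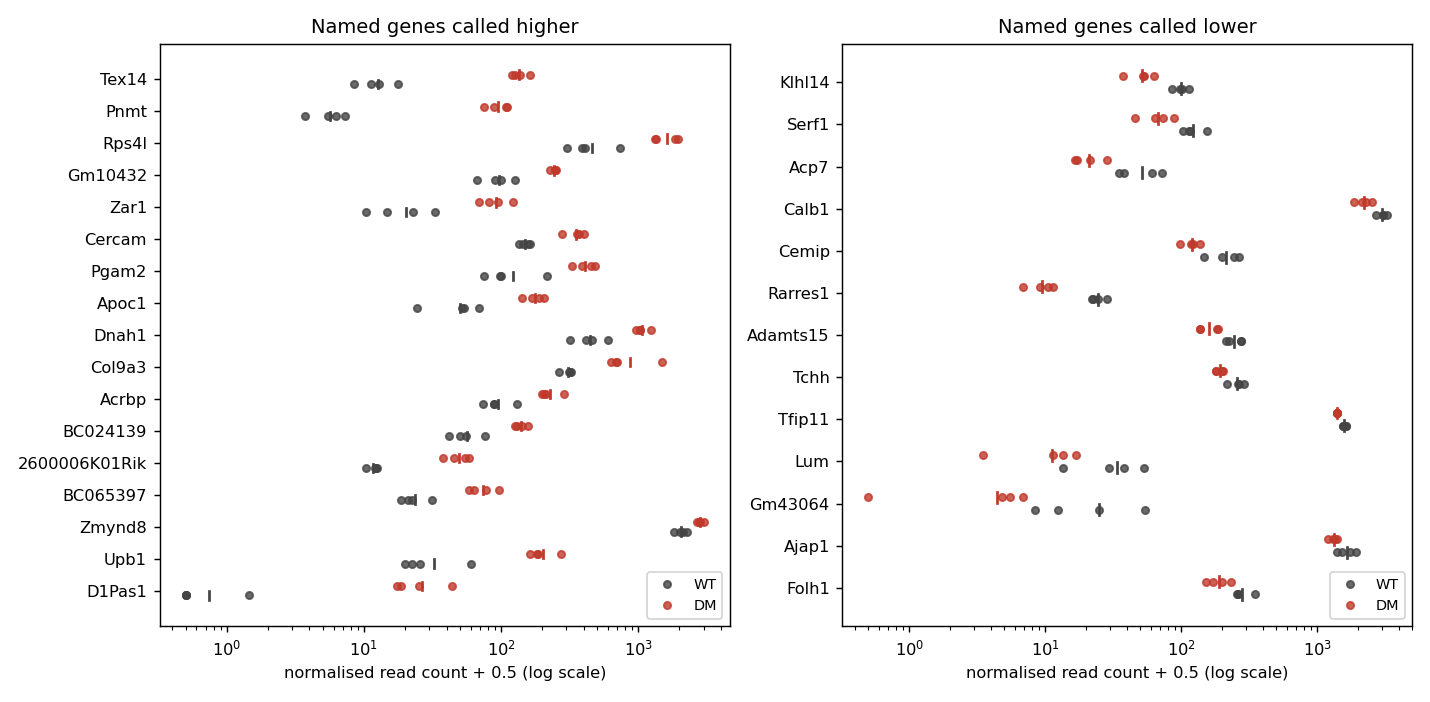
Normalised read counts plus 0.5 (log scale) of the named genes called higher (left) and lower (right) in the 4 WT (grey) and 4 DM (red) amygdala libraries, with short bars at the means. For *Tex14* the DM libraries sit at 119 to 162 and the WT libraries at 7.91 to 17.3, and for *Klhl14* at 36.8 to 63.0 and 85.4 to 114.

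Promoter sequences are shown for the germline genes because they share a change and because the silencing complexes named above read specific motifs. RefSeq windows (GRCm38.p6, 250 bases before to 50 after the start) matched 5 of the 6 genes, and the 150 bases before the start are printed 5′ to 3′ on the gene's strand for 4 of them, in lower case with CACGTG (E-box) and GGCGGGAA (E2F) motifs, searched on both strands, in capitals. *Zar1* was left out of the print because its RefSeq start lies inside its GENCODE transcript.
Tex14, chr11:87404915-87405064, plus strand: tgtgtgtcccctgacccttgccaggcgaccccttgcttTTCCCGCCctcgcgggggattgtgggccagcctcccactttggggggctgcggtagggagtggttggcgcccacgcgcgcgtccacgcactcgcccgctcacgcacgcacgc
D1Pas1, chr1:186967266-186967415, plus strand: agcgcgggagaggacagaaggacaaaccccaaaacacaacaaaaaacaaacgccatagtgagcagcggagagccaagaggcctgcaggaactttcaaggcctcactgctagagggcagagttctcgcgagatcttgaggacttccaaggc
Cyct, chr2:76360454-76360603, minus strand: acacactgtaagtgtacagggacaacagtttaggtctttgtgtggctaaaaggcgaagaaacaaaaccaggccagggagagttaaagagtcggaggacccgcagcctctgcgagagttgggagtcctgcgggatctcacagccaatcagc
Sycp3, chr10:88459437-88459586, plus strand: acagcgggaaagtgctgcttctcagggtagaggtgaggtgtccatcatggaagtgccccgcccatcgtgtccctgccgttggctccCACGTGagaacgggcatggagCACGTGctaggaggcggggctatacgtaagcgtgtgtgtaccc
*Tex14* has an E2F motif starting at position -112 and *Sycp3* has 2 E-boxes starting at -64 and -43, whereas the windows of *Zar1*, *D1Pas1* and *Cyct* hold neither. Over the whole germline list, 17 of 44 genes with a window (38.6%) held an E-box and 8 (18.2%) the E2F motif. Among genes called higher in DM, 15 of 148 with a window held an E-box (10.1%) and 7 the E2F motif (4.73%), beside 10.7% and 4.11% of the 13866 tested genes with a window and 7.15% and 2.19% of all 32851 windows. For a gene with several windows, a motif in any of them was enough, so shares of genes and shares of windows differ in unit. The ratio of observed to expected CpG, taken from each gene's highest window, had a median of 0.436 in genes called higher and 0.730 in genes tested. These are descriptions of letters in a fixed window and say nothing on binding.

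Further genes with roles in germ cells were called outside the list, and were chosen after their values were seen. *Hsf2bp* and *Ccnb1ip1*, both needed for meiotic recombination, had 67.6 ± 28.2 and 28.2 ± 6.26 reads in DM against 10.2 ± 8.90 and 4.02 ± 2.83 in WT (SD, n = 4). *Fkbp6*, a co-chaperone required for homologous chromosome pairing in spermatocytes, had no count in any WT library and 16.7, 3.65, 10.9 and 37.7 reads in DM libraries 1 to 4. Measured against a floor of 3 counts per library it was at least 5.75-fold higher in DM. Outside this class, *Tspo2*, a relative of the mitochondrial translocator protein, also had no count in WT and had 0.99 to 12.9 reads in DM, at least 2.40-fold higher by the same floor. *Trim71*, an early developmental RNA-binding protein, and *Amh*, the anti-Müllerian hormone of Sertoli and granulosa cells, rose by 1.90 ± 0.36 and 1.48 ± 0.30 on the log2 scale (DESeq2 adjusted p = 1.26e-04 and 5.05e-04). *Hsf2bp*, *Ccnb1ip1*, *Fkbp6*, *Tspo2*, *Trim71* and *Amh* were also called by edgeR.

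The other genes with the smallest adjusted p came from unrelated classes. *Pnmt*, which converts noradrenaline to adrenaline, had 4.95, 6.80, 3.23 and 5.74 reads in WT and 109, 108, 88.5 and 74.3 in DM. No DM library was near the WT range, and the log2 fold change was 4.19 ± 0.44 (SE, DESeq2 adjusted p = 1.15e-17). It was the only one of 9 tested genes of catecholamine synthesis and turnover that was called, and the other 8 had log2 fold changes from -0.83 to 0.61. *Upb1*, an enzyme of pyrimidine breakdown, had 21.8, 25.2, 19.4 and 60.2 reads in WT and 183, 273, 187 and 162 in DM, with WT library 4 above the other WT libraries and still below every DM library. *Pgam2*, the muscle isoform of phosphoglycerate mutase, had 122 ± 64.1 and 412 ± 67.3 reads (SD, n = 4), and *Apoc1*, an apolipoprotein, had 49.5 ± 18.7 and 176 ± 28.1. *Apoc1* was the only one of 16 tested apolipoproteins and lipid carriers that was called, where 0.990% of all genes tested were called. *Rps4l*, a ribosomal-protein-like gene on chromosome 6, rose from 459 ± 192 to 1622 ± 328 reads, and its reads may be shared with near-identical copies, while 0 of 83 tested cytosolic ribosomal protein genes were called.

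*Cercam*, a cell adhesion protein, had 134.5 to 162.8 reads in WT and 275.5 to 399.5 in DM, a log2 fold change of 1.23 ± 0.17 (DESeq2 adjusted p = 3.46e-09). *2600006K01Rik* overlaps *Cercam* on the opposite strand and also rose, from 11.2 ± 0.90 to 48.6 ± 9.35 reads (SD, n = 4). The library kit keeps strand but the strand setting of the counting is not stated, so that the 2 genes are uncertain as separate results. *Col9a3*, a chain of collagen IX, had 266 to 323 reads in WT and 1484, 631, 702 and 688 in DM, with DM library 1 above the rest. *Acrbp*, an acrosin-binding protein of sperm, had 73.3 to 129.6 reads in WT and 197.7 to 287.5 in DM, and it overlaps another transcript on the opposite strand. *Zmynd8*, a reader of histone marks, had the smallest fold change among the higher genes named by rank. It had 1820, 2253, 2129 and 2009 reads in WT and 2768, 3011, 2706 and 2807 in DM, a log2 fold change of 0.46 ± 0.08 (DESeq2 adjusted p = 6.72e-06). The remaining genes named by rank, *Gm10432*, *BC024139* and *BC065397*, rose by 1.34, 1.32 and 1.68 on the log2 scale, and the DM libraries lay above all WT libraries for each. Genes on the opposite strand also overlap *Gm10432* (*Ttc7b*), *BC065397* (*Glra4* and *Morf4l2*), *Rps4l* (*Tmtc1*), *Col9a3* (*Tcfl5*), *Upb1* (*Gucd1*), *Zmynd8* (*BC046401*), *Dnah1* (*Gm35823*), *Hsf2bp* (*Rrp1b*) and *Klhl14* (*4930426D05Rik*), and their counts carry the same uncertainty. The same holds for *D1Pas1*, *Serf1*, *Acp7*, *Tchh*, *Tfip11*, *Cfap43*, *Dnah11* and *Kcnj13*. *BC024139* (*Eppk1*), *BC065397* (*Gm15009*), *Acrbp* (*Gm44597*), *Tex14* (*Gm11489* and small RNA genes), *Cfap43* (*Gm22240* and *Mir8090*), *Gm43064* (*Ap4b1* and *Bcl2l15*) and *Mfrp* (*C1qtnf5*) overlap genes on their own strand. Reads can be shared there whatever the strand setting. These lists of overlaps are not complete.

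The 15 lower genes were a count that moved with the fit, from 0 with ERCC size factors and 2 with edgeR to 72 without WT library 4 and 185 with the replicate block. *Klhl14*, an adaptor of a ubiquitin ligase, had 97.9, 85.4, 100 and 114 reads in WT and 63.0, 51.9, 36.8 and 52.8 in DM, a log2 fold change of -0.96 ± 0.22 (DESeq2 adjusted p = 0.00423). *Rarres1*, a retinoic acid responder gene, had 21.6 to 28.2 reads in WT and 6.38 to 10.8 in DM. These were the 2 lower genes that edgeR also called. Without DM libraries 1 and 3 neither was called (DESeq2 adjusted p = 0.126 and 0.234), at log2 fold changes of -0.93 and -1.68. *Calb1*, calbindin, a calcium buffer of many inhibitory neurons, had 3049, 2695, 3240 and 3056 reads in WT and 2549, 2133, 2298 and 1878 in DM. Its groups did not overlap, and the log2 fold change of -0.44 ± 0.11 had a DESeq2 adjusted p of 0.0164 and an edgeR adjusted p of 0.129. *Acp7* (-1.32), *Serf1* (-0.85), *Cemip* (-0.85, a hyaluronan-binding protein), *Adamts15* (-0.62, a matrix protease), *Folh1* (-0.58, which cleaves the neuropeptide NAAG), *Tchh* (-0.43), *Ajap1* (-0.32) and *Tfip11* (-0.18, a splicing factor) were lower by the log2 fold changes given. *Gm43064* had 7.91 to 53.5 reads in WT and 0 to 6.38 in DM. Without DM libraries 1 and 3, *Calb1* (-0.59), *Serf1* (-1.04) and *Adamts15* (-0.85) stayed called. *Acp7*, *Cemip*, *Folh1*, *Tchh*, *Ajap1*, *Tfip11* and *Gm43064* were then not called, with estimates still below 0. *Dpp9*, a dipeptidyl peptidase that the naming rule left out, was also lower, with a log2 fold change of -0.23. *Lum*, the matrix proteoglycan lumican, was the only called member of 12 meningeal and fibroblast genes, with 12.9 to 52.4 reads in WT and 2.98 to 16.4 in DM, and these ranges overlap. Without DM libraries 1 and 3, *Lum* was not called, *Col1a2* and *Fmod* of the same list were called higher and the list's median moved from 0.04 to 0.42.

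Of genes of motile cilia and the ependyma, all 43 members were tested. Of these 7 rose and 0 fell, and 40 of the 43 estimates were above 0, with a median log2 fold change of 0.57. Over all genes tested 0.920% were called higher and the median was -0.01. The called members were *Dnah1*, *Cfap43*, *Dnah11*, *Ak7*, *Cfap44*, *Hydin* and *Dnah12*, which are motor or structural parts of the axoneme or, for *Ak7*, an adenylate kinase found there. *Dnah1*, an inner-arm dynein heavy chain, had 318.5, 597.1, 412.8 and 458.9 reads in WT and 1036, 1249, 964.9 and 1023 in DM. The DM libraries were alike and all above WT (log2 fold change 1.26 ± 0.19, DESeq2 adjusted p = 3.95e-08). *Cfap43* had 31.7 to 43.0 reads in WT and 142, 75.6, 82.6 and 76.5 in DM, and *Dnah11* had 17.8 to 39.9 in WT and 108, 45.6, 109 and 43.1 in DM. DM library 1 was the highest for *Cfap43*, and DM libraries 1 and 3 were the highest for *Dnah11*, with the groups not overlapping for either gene. For *Cfap44* and *Dnah12* the groups overlapped. The summed level of the list was 155.2 to 194.8 CPM in WT and 323.2, 256.2, 281.0 and 224.6 in DM libraries 1 to 4. edgeR called *Dnah1*, *Cfap43* and *Dnah11*. Without DM libraries 1 and 3, only *Dnah1* was called and the median was 0.23. In tissue libraries like these, a different number of cells of a type and a different amount of RNA per cell cannot be told apart.

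Choroid plexus markers were high in 2 of the 4 DM libraries. All 19 markers were tested, 8 were called higher (beside 0.920% of all genes tested) and 0 lower, all 19 estimates were above 0, and the median log2 fold change was 2.86. *Kl*, which encodes klotho, had 86.1, 120, 152 and 157 reads in WT and 2735, 246, 616 and 138 in DM. *Mfrp*, a frizzled-related membrane protein, had 15.3 to 20.5 in WT and 834.5, 24.6, 202.9 and 20.5 in DM. *Ttr*, transthyretin, the chief secreted protein of the choroid plexus, had 846.6, 38.8, 368.6 and 59.3 in WT and 35473, 99.3, 5984 and 30.2 in DM. DM libraries 1 and 3 were above every WT library for the 3 genes, while library 4 was within or below the WT range. The other called markers were *Kcnj13*, *Tmem72*, *Slc4a5*, *Aqp1* and *F5*, and edgeR called only *Kl* and *Mfrp*. Without DM libraries 1 and 3, 0 of 19 markers were called, the median was -0.01, and *Ttr* turned to -2.34. In *Kdm5c*-KO and *Kmt2a*-HET libraries the sum of the markers was 143.8 to 211.3 CPM. In the hippocampus of the same mice the other DM libraries were high, since *Mfrp* had 9.31, 692.1, 17.5 and 966.4 reads in DM libraries 1 to 4 and 23.0 to 240.1 in WT. The part of dissection in the marker levels was not tested.

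**Figure D3:**
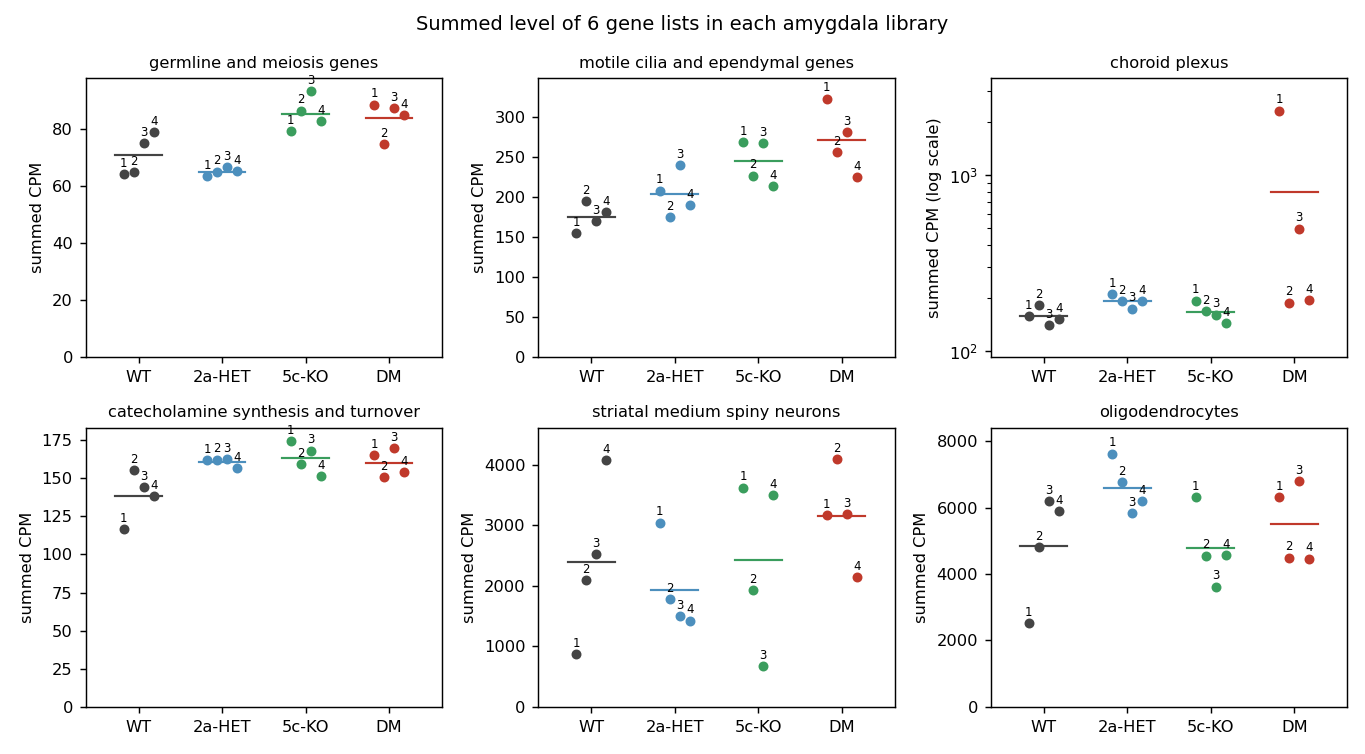
Summed CPM (vertical axes) of 6 gene lists in each amygdala library of the 4 genotypes, with library numbers beside the points and bars at the group means (choroid plexus on a log scale). DM libraries 1 and 3 stand at 2332 and 497.3 CPM of choroid plexus markers, and the germline list reaches 74.7 to 88.6 CPM in DM against 64.3 to 79.1 in WT.

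The 2 libraries weighed on more than choroid plexus genes. DM library 1 was the highest DM library for 88 of the 196 genes called higher (44.9%), beside 24.3% of all genes tested. DM libraries 1 and 3 were both above libraries 2 and 4 in 60 of the 196 (30.6%, beside 16.7%). In 10 of the 196, among them *Aqp1*, *F5*, *Slc4a5*, *Tmem72*, *Ttr*, *Krt8* and *Steap1*, neither DM library 2 nor 4 exceeded the highest WT library. Without both libraries, 73 of 19434 genes tested were called (0.376%), 68 higher and 5 lower, of which 59 were among the 211. The estimate kept its sign in 206 of the 211, and the median log2 fold change of the genes called higher was 0.91 instead of 1.13. *Tex14* (3.63), *Pnmt* (4.13), *Rps4l* (1.80), *Zar1* (2.05), *Cercam* (1.34), *Dnah1* (1.35) and *D1Pas1* (6.15) were called in both fits. Without library 1 alone 110 genes were called and without library 3 alone 155, and 105 and 132 of these were among the 211.

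**Figure D4:**
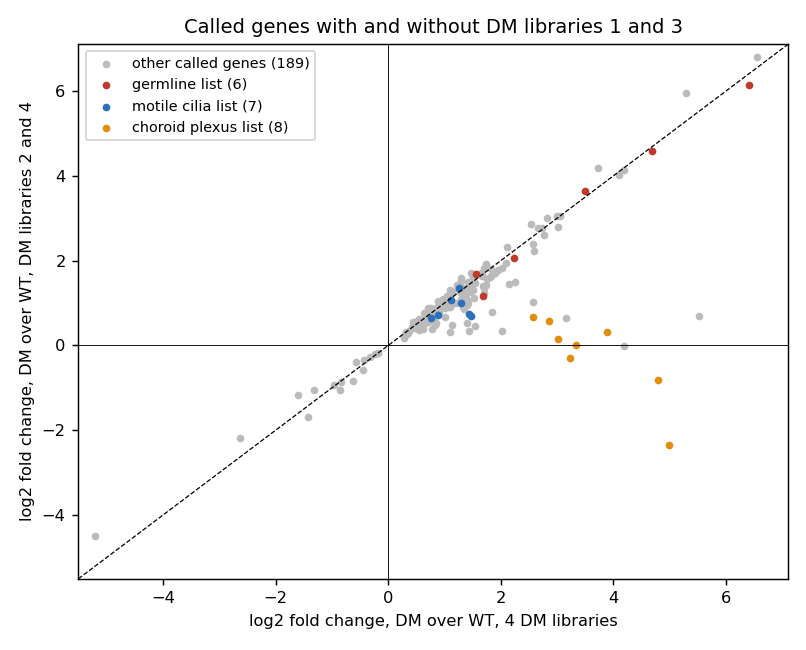
Log2 fold change of DM over WT for 210 called genes (E130208F15Rik left out) from all 4 DM libraries (horizontal axis) and from DM libraries 2 and 4 alone (vertical axis), with the dashed line marking equal values. The 8 choroid plexus genes (orange) drop to values between -2.34 and 0.67, the 6 germline genes (red) lie between 1.18 and 6.15 and the 7 motile cilia genes (blue) between 0.64 and 1.35.

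Lists of amygdala neurons and of the chromatin machinery held no called gene. With 0.990% of all genes tested called, a count of 0 or 1 in lists of these sizes is near the overall share and no result about a list. Among 26 H3K4 methylation enzymes and cofactors 0 were called (log2 fold changes from -0.34 to 0.43), and among 22 members of PRC1.6 and other silencers of germline genes 0 were called (-0.15 to 0.45). Glutamate receptors (0 of 25 tested), GABA synthesis, transport and receptors (0 of 22), calcium channel subunits (0 of 26), neuropeptides (0 of 23) and activity-induced genes (0 of 19) did not pass either. All 8 basolateral amygdala markers had estimates below 0 (median -0.39, 0 called) and all 18 striatal markers had estimates above 0 (median 0.32, 0 called). Their sums overlapped widely between the groups, at 783 to 2207 CPM in WT and 937.3 to 1099 in DM for basolateral and 876.7 to 4079 and 2151 to 4094 for striatal markers, and the share of each subregion in the dissected tissue was not tested. Markers of central and intercalated amygdala neurons (0 of 12) summed to 1049 to 2546 CPM in WT and 1663 to 2652 in DM, so that amygdala markers were present in every library. Oligodendrocyte (0 of 15), astrocyte (0 of 13), endothelial (0 of 12), thalamic (0 of 11), hippocampal subfield (0 of 11), blood (0 of 7) and respiratory chain genes (0 of 96) had no call. The estimates of all 13 astrocyte markers (median 0.15) and of 13 of 15 oligodendrocyte markers (median 0.35) were above 0. The oligodendrocyte median was 0.03 without DM libraries 1 and 3, whose sums were 6316 and 6792 CPM, against 4492 and 4464 in DM libraries 2 and 4. In the microglial list *Siglech*, a surface lectin of microglia, was the only called member of 14, with 267, 164, 209 and 213 reads in WT and 291, 340, 365 and 300 in DM. Without DM libraries 1 and 3 *Siglech* was not called (DESeq2 adjusted p = 0.204), at a log2 fold change of 0.59 beside 0.60 with them. The study picked 10 neuroactive genes by a rule that asked for a large change between a single mutant and DM and a small one between DM and WT. These genes had 0 calls here, with a smallest adjusted p of 0.969 (DESeq2). Their log2 fold changes of DM over *Kdm5c*-KO in the amygdala ran from -1.025 (*Pomc*) to 0.43 (*Adora2a*). Those of DM over WT ran from -0.77 (*Pomc*) to 1.555 (*Lhb*). Whether the rule bears on the 0 calls was not tested. Values ranged widely within WT, for example from 31.6 to 298.1 reads for *Pomc* and from 759.6 to 5175 for *Adora2a*.

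The called genes were followed into other libraries. The other 8 amygdala libraries had part in the spread estimated by the 16-library fit, but not in the DM and WT means. Between *Kdm5c*-KO and *Kmt2a*-HET amygdala, which share no library with DM or WT, 142 of 19056 genes tested were called (0.745%). Of the 196 genes higher in DM, 167 (85.2%) were also higher in *Kdm5c*-KO than in *Kmt2a*-HET, 68 (34.7%) were called in that direction and 0 in the other, and their median log2 fold change was 0.57. For comparison, 50.9% of all genes tested there had an estimate above 0. Of the 15 lower genes, 13 were lower in *Kdm5c*-KO and 1, *Lum*, was called. *Tex14* differed by 3.04, *Pnmt* by 2.98, *Zar1* by 2.71 and *D1Pas1* by 7.50 on the log2 scale, whereas *Kl* (0.27), *Mfrp* (-0.44) and the other choroid plexus genes did not pass. *Cfap43*, *Dnah11* and *Hydin* also had small estimates there (0.19, -0.06 and -0.32), unlike *Dnah1* (1.04, DESeq2 adjusted p = 1.69e-05). The groups differ in both genes, so that the 2 lesions cannot be told apart in this comparison.

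In the hippocampus of the same mice, 170 of 19302 genes tested differed between DM and WT (0.881%). The mice are the same ones, and the libraries are separate. Of the 196 genes higher in the amygdala, 183 (93.4%) had a positive estimate in the hippocampus and 56 (28.6%) were called higher, with a median log2 fold change of 0.81, beside 50.3% positive over all genes tested. These 56 were 32.9% of the 170 calls of the hippocampus. Of the 15 lower genes 11 were lower and 0 were called. *Tex14* (3.69), *D1Pas1* (6.47), *Rps4l* (2.19), *Pgam2* (1.75) and *Zmynd8* (0.67) were called in both regions. *Dnah1* rose in the hippocampus from 174.5 to 827.5 reads on average (DESeq2 log2 fold change 2.24, adjusted p = 2.33e-62). *Pnmt* stayed low there, with 1.13 to 5.75 reads in WT and 0.93 to 18.6 in DM, and was not called. *Upb1* had 0 to 5.09 reads in WT and 0.88 to 6.26 in DM hippocampus and was not tested, and *Acrbp* had a log2 fold change of 0.01.

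**Figure D5:**
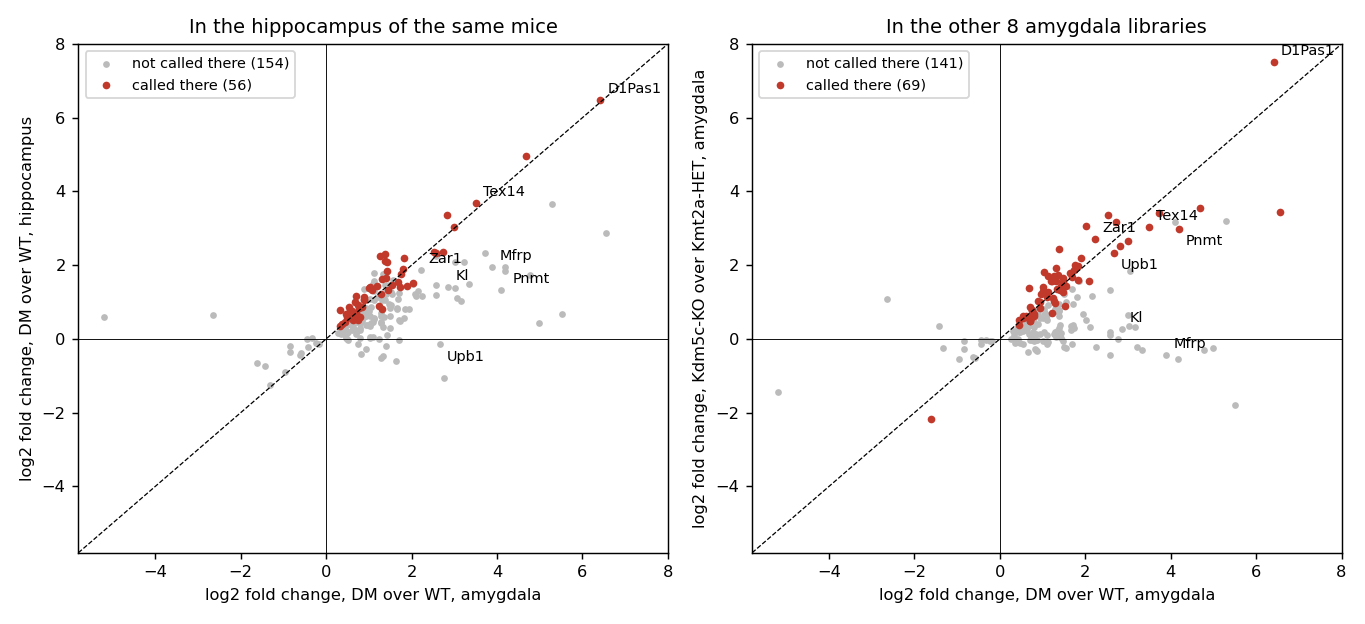
Log2 fold change of DM over WT in the amygdala (horizontal axis) for 210 called genes against that in the hippocampus of the same mice (left) and against *Kdm5c*-KO over *Kmt2a*-HET in the amygdala (right), with genes called there in red and the dashed line marking equal values. Most points lie above 0 in both panels, 56 are called in the hippocampus and 69 in the other amygdala libraries, and *Kl* and *Mfrp* lie near 0 on the right.

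Whether the change itself differed between the regions was tested across all 32 libraries. Only 4 of 32039 genes tested were called (0.0125%), and 16 with the mouse as a block, since each mouse gave both regions. The 16 held all 4 of these genes and, among the genes named above, *Dnah1* and *Acrbp*. The test did not call *Pnmt*, *Zar1*, *Apoc1* or *Tex14* (DESeq2 adjusted p = 1 for each). *Ido2*, an enzyme of tryptophan breakdown, had 15.8 to 31.3 reads in WT and 27.6 to 33.4 in DM amygdala, but 11.5 to 43.9 in WT and 168 to 212 in DM hippocampus. *Cacng6*, a calcium channel gamma subunit, had 10.52 to 65.3 and 33.7 to 57.1 in the amygdala, and 22.1 to 47.6 and 406 to 639 in the hippocampus. *Pnck*, a calcium and calmodulin-dependent kinase, had 1913 to 3159 and 2503 to 3613 in the amygdala, and 1165 to 1489 and 2473 to 3560 in the hippocampus. For these 3 genes the groups overlapped in the amygdala and not in the hippocampus. The fourth, *E130208F15Rik*, annotated as protein coding, had 35.4 and 39.8 reads in DM amygdala libraries 1 and 3 and 0 in the other DM and in all WT amygdala libraries, and 0 to 11.03 in WT and 0 to 12.5 in DM hippocampus. DM amygdala was also compared with *Kdm5c*-KO amygdala, and 1 of 30355 genes tested was called (0.00329%), *Mfrp*, the choroid plexus gene that was high in DM libraries 1 and 3. edgeR called 0 there, with 557 genes at an unadjusted p under 0.05 (694 with DESeq2). The count was not stable, with 0 to 31 leaving out 1 library, 105 with a term for replicate 1 and 357 with the replicate block. *Mfrp* in *Kdm5c*-KO libraries ranged from 6.86 to 22.6 reads.

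Called genes were found on every tested autosome. Chromosome 19 had the highest share, 11 of 611 genes tested (1.80%), and chromosome 13 the lowest, 2 of 869 (0.230%), while chromosome X had 4 of 668 (0.599%) and chromosome Y 0 of 10. Within 5 Mb of *Kmt2a*, 4 of 143 genes tested were called (2.80%, beside 0.990% overall), *Tmprss4*, *BC049352*, *Mfrp* and *2900052N01Rik*, and within 5 Mb of *Kdm5c* 0 of 45 were. *Tmprss4*, a serine protease gene at chr9:45172726-45204092 (mm10), had 0, 0.97, 0 and 3.83 reads in WT and 19.7, 31.9, 24.9 and 7.54 in DM. It had 0 to 3.71 reads in *Kmt2a*-HET and 0 to 30.9 in *Kdm5c*-KO libraries, of which only the former carry the *Kmt2a* allele. It overlaps *BC049352*, which lies on the opposite strand and had 4.95 to 15.3 reads in WT and 24.8 to 49.2 in DM. *2900052N01Rik*, a non-coding gene 2.03 Mb from *Kmt2a*, had 2708 to 4391 reads in WT and 4881 to 6261 in DM, and it was called in the hippocampus as well (DESeq2 log2 fold change 1.17, adjusted p = 3.11e-05).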

How the data were processed

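Tissue RNA was sequenced by the authors with an oligo-dT directional kit and ERCC spike-ins. The submitters' processing notes and the study's methods name STAR 2.5.3a (mm10, unique reads, duplicates removed), featureCounts (Subread 1.5.0) and DESeq2 1.14.1. The deposited gene tables hold expected counts, per the file headers, with values that are not all whole, so the estimator and the strand setting are not given in the sources used here. Expected counts were rounded to whole numbers. The 92 ERCC rows were left out of every test. Symbols and positions came from GENCODE M21 (GRCm38/mm10).

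Genes were tested with DESeq2 1.42.0 (R 4.3.3, Wald test, all 16 amygdala libraries in 1 fit, default size factors and independent filtering, unshrunken log2 fold changes, Benjamini-Hochberg adjusted p under 0.1). The region difference was fitted to all 32 libraries. Values are normalised reads or CPM, and ± is the SD of 4 mice or, after a log2 fold change, its SE. Alternatives were edgeR 4.0.16 (quasi-likelihood test, TMM), TMM or ERCC size factors, a filter of 10 counts in 4 libraries, an adjusted p under 0.05, the compared groups alone, a replicate block and leaving out each library. The scripts were tested on simulated data with known changes.

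Titles give WT and DM mice the numbers 1 to 4. Deviations of same-numbered libraries correlated at -0.222 to 0.195 (median 0.103, 2 of 4 pairs over 0.1). Those of other pairs correlated at -0.218 to 0.218 (median -0.0165, 4 of 12 over 0.1). The median for both regions of the same mouse was 0.0968, so these values do not settle whether the numbers mark pairs. The main fit did not use the numbers, and fits with a replicate block are given as alternatives. Both regions came from the same mouse, which pairs the region difference (8 mice, -0.00567 to 0.317).

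Named genes were the targeted genes, 16 genes called higher with the smallest adjusted p and 4 DM libraries above all WT libraries, 14 called lower, up to 3 called per list, the study's 10 genes, and up to 5 called in the DM against *Kdm5c*-KO or region comparison. The 27 lists, the members and the rule were chosen with earlier results of these data known. A called gene is not reported here.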

Additional observations from a re-analysis of the deposited data

Results flagged for a closer look

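A library standing apart from the other 3 of its group was found in 10 of 158 groups of 4 values examined (Dixon's criterion at 95%), and chance gives about 1 in 20. In WT, *Col9a3* was low in library 1 (266 reads, others 314.6 to 323.2), *Upb1* was high in library 4 (60.2, others 19.4 to 25.2), *D1Pas1* had its only read in library 4 (0.956), and library 3 was high for *Folh1* (346, others 255.2 to 262.2). In DM, library 1 was high for *Col9a3* (1484, others 631.4 to 702.3) and *Cfap43* (141.7, others 75.6 to 82.6), and library 4 for *Acrbp* (287.5, others 197.7 to 211.9). Among list sums, DM library 1 stood apart for choroid plexus markers (2332 CPM, others 188.2 to 497.3), DM library 4 for hypothalamic and pituitary genes (466.8, others 146.3 to 157.2), and WT library 1 for cytosolic ribosomal protein genes (22073, others 13690 to 14737).

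Effects that differed between amygdala and hippocampus by the test of the difference (DESeq2, adjusted p under 0.1) were those of *Ido2* (-2.46), *Cacng6* (-3.49), *Pnck* (-0.89) and *E130208F15Rik* (22.8) on the log2 scale, amygdala minus hippocampus. With the mouse as a block, 16 genes were called, these 4 among them, at -2.54, -3.26, -0.88 and 36.4. The last value depends on how a fit treats groups without reads, since all WT and 2 DM amygdala libraries had none, and is no measure of size. *Ido2*, *Cacng6* and *Pnck* were higher in all 4 DM than in all 4 WT hippocampal libraries.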

How the results depend on the processing

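The number of genes called in DM against WT amygdala (211, 196 higher and 15 lower) moved by more than 1.5 times with edgeR (89, 87 and 2), with ERCC size factors (7, 7 and 0), with only the groups compared (128, 120 and 8), with the replicate block (601, 416 and 185, but 256 in all with the block and the low-count filter) and without DM libraries 1 and 3 (73, 68 and 5, chosen after seeing the data). A term for replicate 1 gave 340 with 62 lower, and an adjusted p under 0.05 gave 9 lower genes. Leaving out 1 library gave 110 to 277 genes, 104 to 205 higher and 6 to 72 lower, the lowest without DM library 1 and the highest without WT library 4. With ERCC size factors and 0 lower calls by DESeq2, 154 lower genes had an unadjusted p under 0.05. These size factors moved the median log2 fold change of all genes to -0.21, and the 7 genes then called were *Ccnb1ip1*, *D1Pas1*, *E130208F15Rik*, *Fkbp6*, *Pnmt*, *Tex14* and *Upb1*.

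DM against *Kdm5c*-KO gave 1 gene, 0 with edgeR, ERCC size factors or only the groups compared (557, 173 and 707 at an unadjusted p under 0.05), 3 without DM libraries 1 and 3, 105 with a term for replicate 1, 357 with the replicate block, 3 with the block and the low-count filter, and 0 to 31 leaving out 1 library. The hippocampus gave 170, with 63 (edgeR), 6 (ERCC), 323 (only the groups compared), 480 (replicate block) and 100 to 261 leaving out 1 library. The region difference gave 4, with 2 (edgeR), 1 (ERCC), 8 (low-count filter), 11 (only the groups compared), 16 (mouse as replicate block, with or without the filter) and 2 to 8 leaving out 1 library. The cause of these moves was not tested. Of 38 named genes called in DM against WT, 24 were called by edgeR, 38 with the low-count filter, 37 with TMM size factors, 5 with ERCC size factors and 20 without DM libraries 1 and 3, and none changed direction under a setting that gave it an adjusted p.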
